A study of Homo sapiens with 6 samples.

Results

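The factors that start protein synthesis, together with the kinases, phosphatase subunits and binding proteins that restrain them, were examined in RNA-seq values of ARPE-19 cells. ARPE-19 is an established human retinal pigment epithelial (RPE) line. All 53 genes on a list of initiation factors and eIF2 regulators were found, by symbol, among the 33496 genes of the deposited tables. Of the 6 libraries, 3 came from cells given erastin alone (Era, 5 μM, 24 h) and 3 from cells given vitamin K1 (VK1, 10 μM) 1 h before the same erastin (Era+VK). Erastin blocks cystine uptake and thereby triggers ferroptosis, an iron-dependent cell death, and VK1 is phylloquinone, the plant form of vitamin K. The labels give every library the genotype WT, and both groups carried erastin, so no value below compares erastin with its absence, and libraries without erastin were not analysed here. The question behind the contrast is how vitamin K alters expression in erastin-treated RPE cells.

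Protein synthesis usually starts when eIF2, bound to GTP, delivers the initiator tRNA to the small ribosomal subunit, while eIF3, eIF1 and eIF1A hold that subunit open and the eIF4 factors bring in the capped mRNA. After each round eIF2 carries GDP, and eIF2B exchanges it for GTP. When cells are short of amino acids or heme, or face unfolded proteins or viral RNA, a kinase phosphorylates the alpha subunit of eIF2. Phosphorylated eIF2 inhibits eIF2B, which lowers general initiation but favours translation of a few mRNAs, among them that of the transcription factor ATF4. This circuit is the integrated stress response. A separate brake is set by the 4E-binding proteins (4E-BPs), which compete for the cap-binding protein eIF4E until the kinase complex mTORC1 phosphorylates them. Phosphorylation and protein levels are not measured by RNA-seq, so all values here are mRNA levels.

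The deposited unit was FPKM (fragments mapped to a gene, divided by its transcript length and by the library's mapped fragments), which is per length and can therefore be compared between genes. Between 11924 and 12027 genes per library reached 1 FPKM, and read counts and depth were not recovered from these values. In Era+VK replicates 2 and 3, 10 globin genes summed to 235 and 228 FPKM, against 0.24 to 0.61 FPKM in the other 4 libraries. Of 16 erythroid markers in the tables, 13 reached 0.2 FPKM in both of those libraries and were higher there than in every other, while HBB stayed at or under 0.04 FPKM. Results were also computed without either or both of these libraries, and after rescaling without mitochondrially encoded and globin genes. Of 10 RPE markers in the tables, 5 reached 1 FPKM in every library, and the RPE-defining genes RPE65, TYR and RLBP1 did not exceed 0.02, 0.17 and 0.29 FPKM. The transcription factors OTX2 and MITF, also on that list, were at 27.5 to 31.4 FPKM and 15.5 to 18.6 FPKM, the keratins KRT8 and KRT18 at 171 to 209 FPKM and 222 to 246 FPKM, and BEST1 varied from 0.60 to 57.0 FPKM without regard to group. The cell line label of the libraries counts upwards by 1 from library to library, whereas all titles name ARPE-19. Nothing in the labels says whether the 3 libraries of a group are separate cultures, so p-values measure the spread between these libraries, which may be technical. In bulk RNA, fewer cells of a type and less RNA per cell cannot be told apart.

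The 53 genes together held 0.808, 0.804 and 0.792% of all FPKM in Era replicates 1, 2 and 3, and 0.766, 0.781 and 0.777% in Era+VK replicates 1, 2 and 3. Values for 3 libraries are given in this order throughout. All 3 Era+VK shares were below all 3 Era shares. Abundant genes weigh most in this sum, and EIF4EBP1 alone went from a mean of 107 FPKM (Era) to 67.7 FPKM (Era+VK). On the log2 scale, 28 of the 52 tested members had a lower mean in Era+VK and 24 a higher one (all genes: 36.7% lower). The share is therefore not a fall across the members. The most abundant mRNAs, averaged over the 6 libraries, were EIF4G2 at 148 FPKM, EIF5A at 134 FPKM and EIF4B at 124 FPKM. Among the tested genes the least abundant were EIF5A2 at 2.65 FPKM, EIF2AK3 at 2.98 FPKM and EIF2AK4 at 3.67 FPKM. EIF4E3, a cap-binding protein of the eIF4E family, did not reach the mean of 1 FPKM required for testing, with values of 0.29, 0.25 and 0.37 FPKM (Era) against 0.29, 0.41 and 0.27 FPKM (Era+VK).

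**Figure D1:**
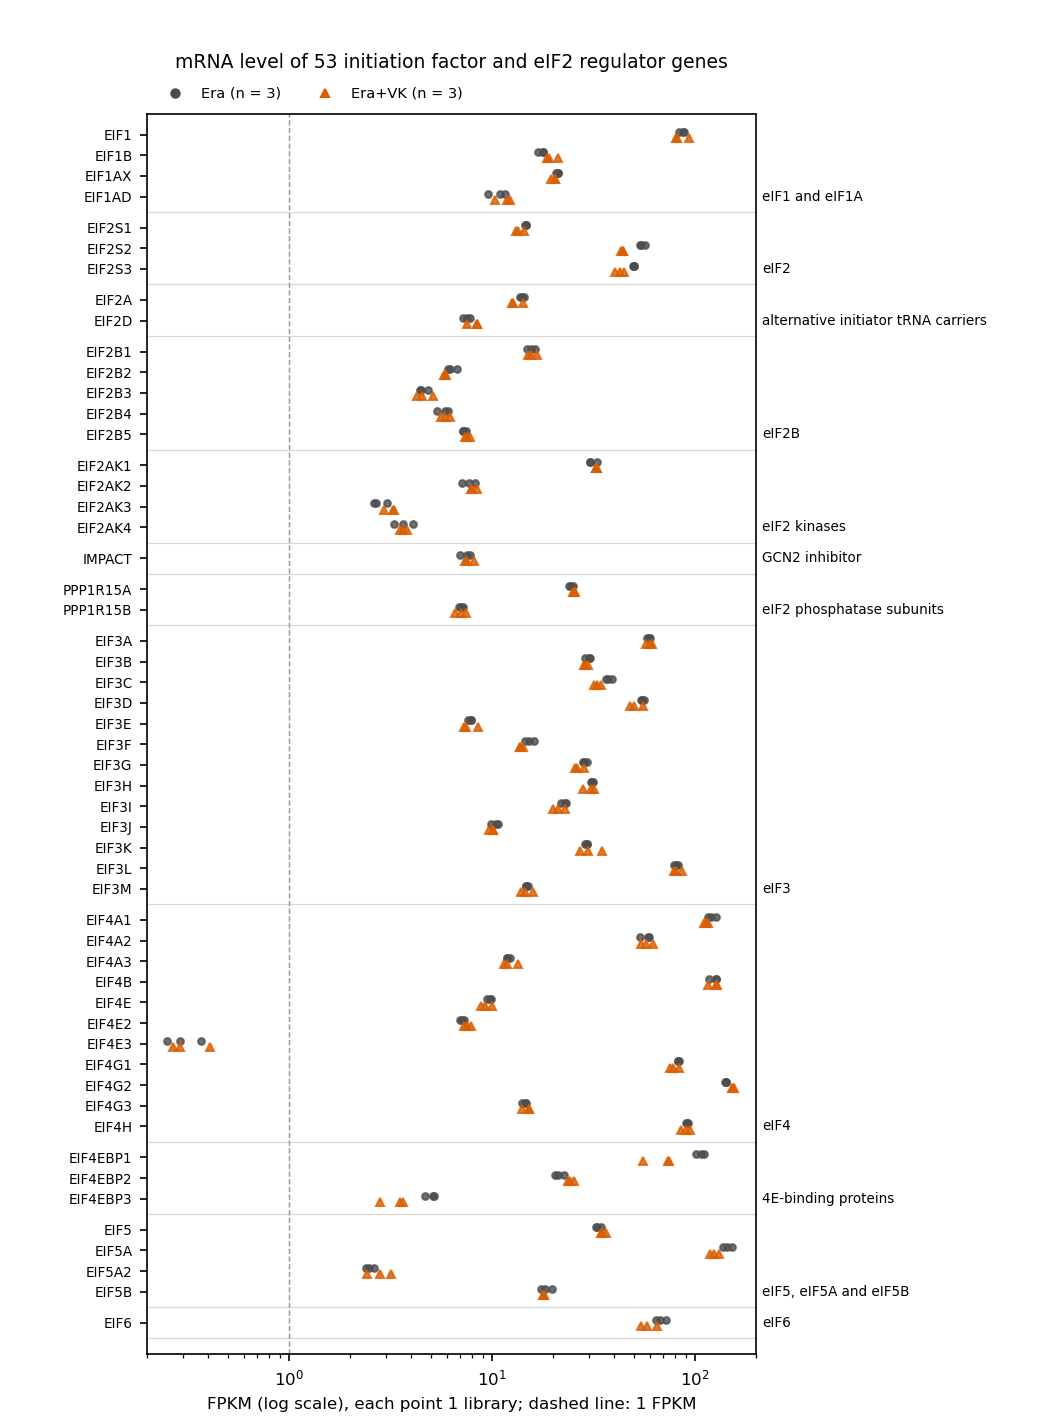
mRNA level in FPKM (log scale, horizontal axis) of the 53 genes, by factor group (labels at right), with 1 point per library, circles for Era and triangles for Era+VK. The groups lie on top of each other for most genes, EIF4E3 is the single gene left of the dashed line at 1 FPKM, and EIF2S2, EIF4EBP1 and EIF4EBP3 show triangles apart from circles on the lower side.

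Of the 52 tested genes, 1 changed: EIF2S2, the beta subunit of eIF2, fell in Era+VK. The test was limma on log2(FPKM + 1), with Benjamini-Hochberg adjustment over the 11981 genes whose mean reached 1 FPKM and a threshold of 0.05. At that threshold 0.618% of all tested genes were called. A log2 fold change here is the Era+VK mean minus the Era mean on the log2(FPKM + 1) scale, on which changes of low genes come out smaller than they are. The median over the 52 genes was -0.0089, against 0.033 over all genes tested, and 38 of the 52 differed by less than 0.1 in either direction, as did 65.3% of all genes. An unadjusted p under 0.05 was reached by 8 members on the lower side and 3 on the higher side (all genes: 5.42% lower and 10.4% higher). In 11 members every Era+VK library was below every Era library, and in 4 members every one was above (all genes: 7.04% and 15.1%, together 22.1%). These counts correspond to 15.4% and 5.77% of the tested members for the unadjusted p, and to 21.2% and 7.69% for groups that did not overlap. Without both Era+VK replicates that held globin transcripts, 1 member passed, EIF4EBP1 in place of EIF2S2, in a fit that assumes that the lone Era+VK library varies like Era.

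**Figure D2:**
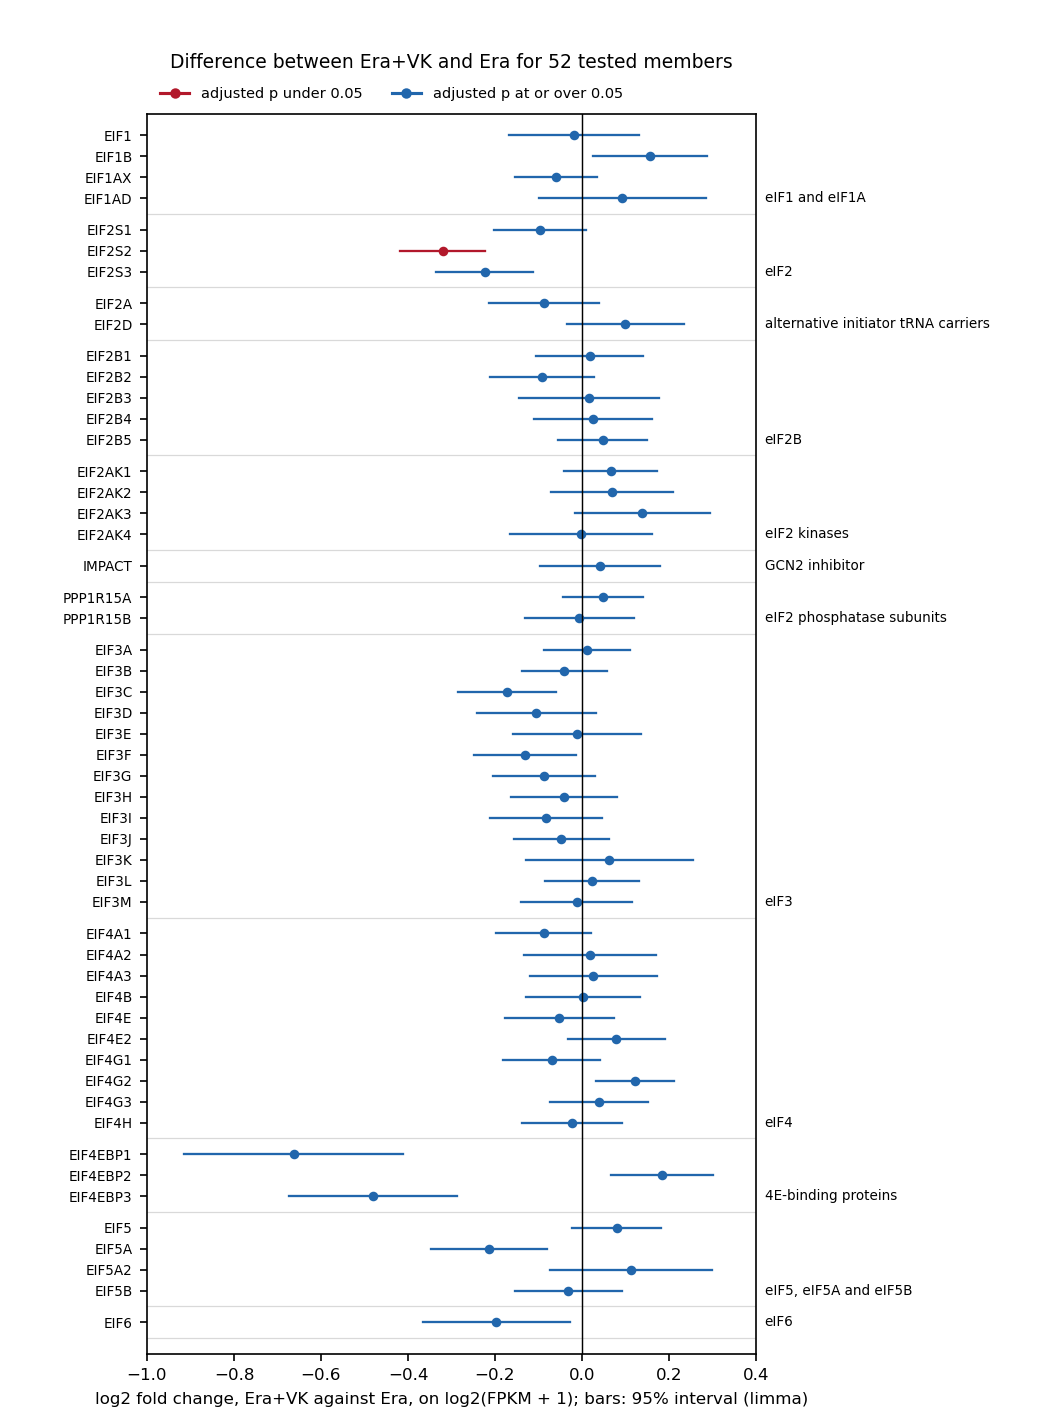
Log2 fold change of Era+VK against Era on log2(FPKM + 1) for the 52 tested genes, by factor group, with 95% intervals from limma; 0 means no difference. EIF2S2 (red) passed the adjusted threshold at -0.32, EIF4EBP1 and EIF4EBP3 lie furthest to the left with adjusted p-values just over it, and the kinases, phosphatase subunits and eIF2B subunits have intervals that include 0.

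eIF2 is a trimer of alpha (EIF2S1, the subunit that the stress kinases phosphorylate), beta (EIF2S2, which binds eIF5 and eIF2B) and gamma (EIF2S3, which binds GTP and the initiator tRNA). All 3 mRNAs were lower in every Era+VK library than in every Era library (all genes: 7.04%), and only the beta mRNA passed the test. EIF2S2 (ENSG00000125977, on chromosome 20 of GRCh38 from 34088298 to 34112332 on the minus strand in GENCODE 29) stood at 54.3, 53.4 and 56.9 FPKM (Era) against 43.1, 44.0 and 44.2 FPKM (Era+VK). Its Era+VK libraries sat close together, well under the lowest Era library. The mean was 54.9 ± 1.82 FPKM (Era) against 43.8 ± 0.611 FPKM (Era+VK) (SD, n = 3 for both), which gave a log2 fold change of -0.32 (standard error 0.042, limma adjusted p = 0.0229). EIF2S3 was at 49.3, 50.1 and 50.3 FPKM (Era) against 40.2, 44.8 and 42.8 FPKM (Era+VK). Its log2 fold change was -0.22 (standard error 0.048), and with a limma adjusted p of 0.0965 it did not pass. The copy EIF2S3B was at 0.54 to 0.93 FPKM over the 6 libraries. EIF2S1, well below its partners in level, had 14.5, 14.7 and 14.8 FPKM (Era) against 13.2, 14.3 and 13.5 FPKM (Era+VK). The gap between its groups was narrow, with a log2 fold change of -0.10 (95% interval -0.20 to 0.0083, limma adjusted p = 0.351).

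Per unit of EIF2S1, the FPKM of EIF2S2 was 3.74, 3.63 and 3.85 in Era and 3.27, 3.07 and 3.27 in Era+VK. The same ratio for EIF2S3 was 3.39, 3.401 and 3.397 in Era and 3.05, 3.13 and 3.17 in Era+VK. Neither ratio overlapped between the groups. The ratios reuse the beta and gamma values given above, and EIF2S1 differed less than its partners, so they are not a separate result. The call on EIF2S2 depended on the genes tested, the model and the libraries used. With no filter on low values the limma adjusted p was 0.0877, and with the replicate number as a block it was 0.0757. Its log2 fold change was between -0.34 and -0.29 with each library left out in turn, but the limma adjusted p was 0.113, 0.112 and 0.110 without Era replicates 1, 2 and 3, and 0.0660, 0.0380 and 0.0758 without Era+VK replicates 1, 2 and 3. Without both libraries that held globin transcripts it was 0.0964, at a log2 fold change of -0.34. Reads may be shared with the processed pseudogene EIF2S2P4, listed at 9.80, 8.05 and 10.6 FPKM (Era) against 7.91, 9.08 and 7.47 FPKM (Era+VK). With EIF2S2 and its pseudogenes summed, the log2 fold change was -0.30 (limma adjusted p = 0.0445).

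**Figure D3:**
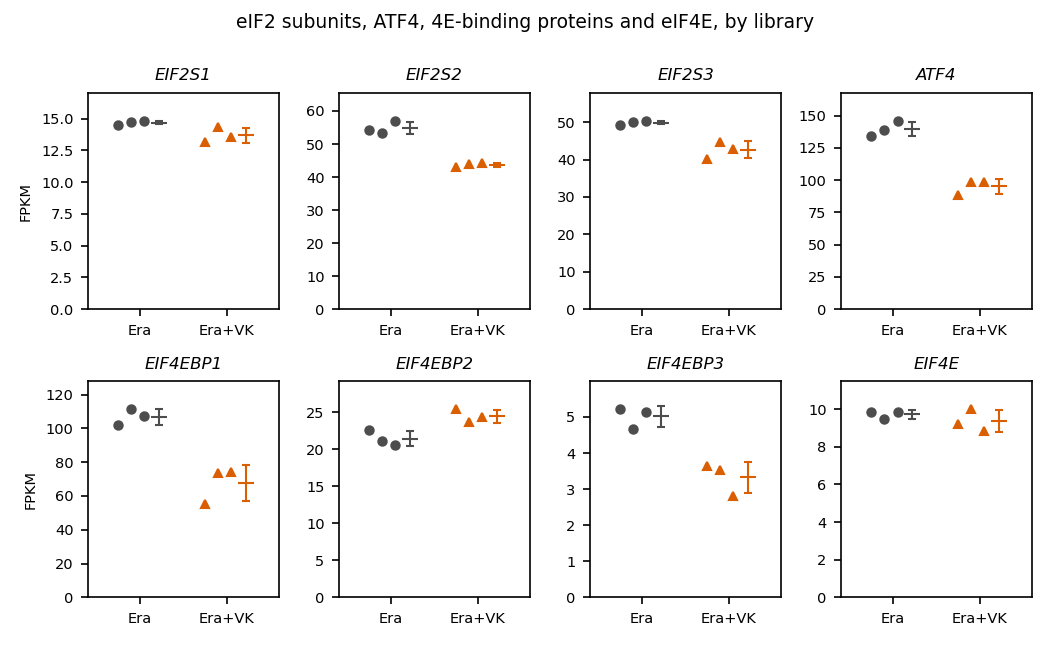
FPKM per library (vertical axes from 0, a scale for each panel) of the 3 eIF2 subunits, ATF4, the 3 4E-binding proteins and EIF4E, with circles for Era, triangles for Era+VK, and the mean ± SD (n = 3) beside them. Era+VK points lie below all Era points for EIF2S1, EIF2S2, EIF2S3, ATF4, EIF4EBP1 and EIF4EBP3, above them for EIF4EBP2, and among them for EIF4E.

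EIF2A and EIF2D, which can bring initiator tRNA to the ribosome by routes that do not need eIF2, had overlapping groups. EIF2A ranged from 13.8 to 14.4 FPKM in Era and from 12.6 to 14.2 FPKM in Era+VK. EIF2D ranged from 7.22 to 7.83 FPKM in Era and from 7.54 to 8.49 FPKM in Era+VK. Their log2 fold changes of -0.086 and 0.10 pointed opposite ways, and neither passed (limma adjusted p = 0.477 and 0.449).

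eIF2B, the exchange factor that recharges eIF2, has 5 subunits, of which alpha, beta and delta (EIF2B1, EIF2B2 and EIF2B4) form the part that senses phosphorylated eIF2 while gamma and epsilon (EIF2B3 and EIF2B5) form the catalytic part. None of the 5 mRNAs passed the adjusted test in limma or reached an unadjusted p under 0.05. EIF2B1, the most abundant, had 15.5, 16.3 and 14.9 FPKM (Era) against 15.1, 16.6 and 15.6 FPKM (Era+VK). EIF2B2 had 6.23, 6.06 and 6.73 FPKM (Era) against 5.95, 5.80 and 5.90 FPKM (Era+VK). It was the one subunit whose groups did not overlap (all genes: 22.1%), at a log2 fold change of -0.092 (95% interval -0.21 to 0.028). EIF2B4 had 6.10, 5.39 and 5.87 FPKM (Era) against 5.63, 6.19 and 5.89 FPKM (Era+VK). Libraries of the groups were interleaved for EIF2B1 and EIF2B4. For the catalytic part, EIF2B3 had 4.46, 4.41 and 4.83 FPKM (Era) against 4.27, 5.13 and 4.51 FPKM (Era+VK). EIF2B5 had 7.20, 7.23 and 7.44 FPKM (Era) against 7.57, 7.76 and 7.37 FPKM (Era+VK). The group median was 0.017, and the widest 95% interval, that of EIF2B3, ran from -0.14 to 0.18 on the log2 scale. The signs of EIF2B1, EIF2B3 and EIF2B4 flipped under other scalings, so no direction is given for them.

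The 4 eIF2 kinases answer to different signals: EIF2AK1 (HRI) to low heme and mitochondrial stress, EIF2AK2 (PKR) to double-stranded RNA, EIF2AK3 (PERK) to unfolded proteins in the endoplasmic reticulum, and EIF2AK4 (GCN2) to uncharged tRNA. None of them passed the test in limma, and none reached an unadjusted p under 0.05. EIF2AK1 mRNA was at 30.4, 30.4 and 33.0 FPKM (Era) against 32.6, 32.7 and 33.0 FPKM (Era+VK). It made up 66.4, 68.6 and 71.5% of the summed kinase FPKM in Era and 68.4, 69.4 and 68.4% in Era+VK. HRI is abundant in erythroid cells. The EIF2AK1 value in Era+VK replicate 1, which lacked globin transcripts, was 32.6 FPKM, next to 32.7 and 33.0 FPKM in the libraries that held them. Era replicate 3, also without them, was at 33.0 FPKM. Whether erythroid RNA added to these values was not tested.

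EIF2AK2 was at 8.24, 7.67 and 7.12 FPKM (Era) against 7.95, 7.86 and 8.47 FPKM (Era+VK). EIF2AK4, the amino acid sensor, was at 4.07, 3.64 and 3.31 FPKM (Era) against 3.82, 3.63 and 3.52 FPKM (Era+VK). EIF2AK3 was at 3.05, 2.62 and 2.70 FPKM (Era) against 3.27, 2.95 and 3.29 FPKM (Era+VK). In every library EIF2AK1 was the highest, followed by EIF2AK2, then EIF2AK4 (3.31 to 4.07 FPKM) and last EIF2AK3 (2.62 to 3.29 FPKM). The log2 fold changes were 0.066 for EIF2AK1 (95% interval -0.040 to 0.17), 0.069 for EIF2AK2 (-0.071 to 0.21), 0.14 for EIF2AK3 (-0.017 to 0.29) and -0.0025 for EIF2AK4 (-0.17 to 0.16). The sign of EIF2AK4 flipped when single libraries were left out. These intervals include 0 and leave room for differences of up to 0.29 on the log2 scale. The lowest limma adjusted p of the kinases was 0.366, for EIF2AK3. IMPACT, which competes with GCN2 for its activator GCN1, was at 7.81, 7.52 and 6.96 FPKM (Era) against 7.52, 8.16 and 7.35 FPKM (Era+VK), with overlapping groups and a log2 fold change of 0.042 (95% interval -0.10 to 0.18).

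Dephosphorylation of eIF2 is directed by PPP1R15A (GADD34), a subunit made under stress, and PPP1R15B (CReP), the constitutive subunit. Both had overlapping groups. PPP1R15A was at 25.1, 23.9 and 24.5 FPKM (Era) against 25.1, 25.5 and 25.6 FPKM (Era+VK). PPP1R15B was at 6.87, 7.20 and 7.05 FPKM (Era) against 7.03, 6.57 and 7.43 FPKM (Era+VK). The log2 fold changes were 0.049 (95% interval -0.044 to 0.14, limma adjusted p = 0.588) and -0.0066 (95% interval -0.13 to 0.12, limma adjusted p = 0.968), and the sign of the second flipped when single libraries were left out.

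**Figure D4:**
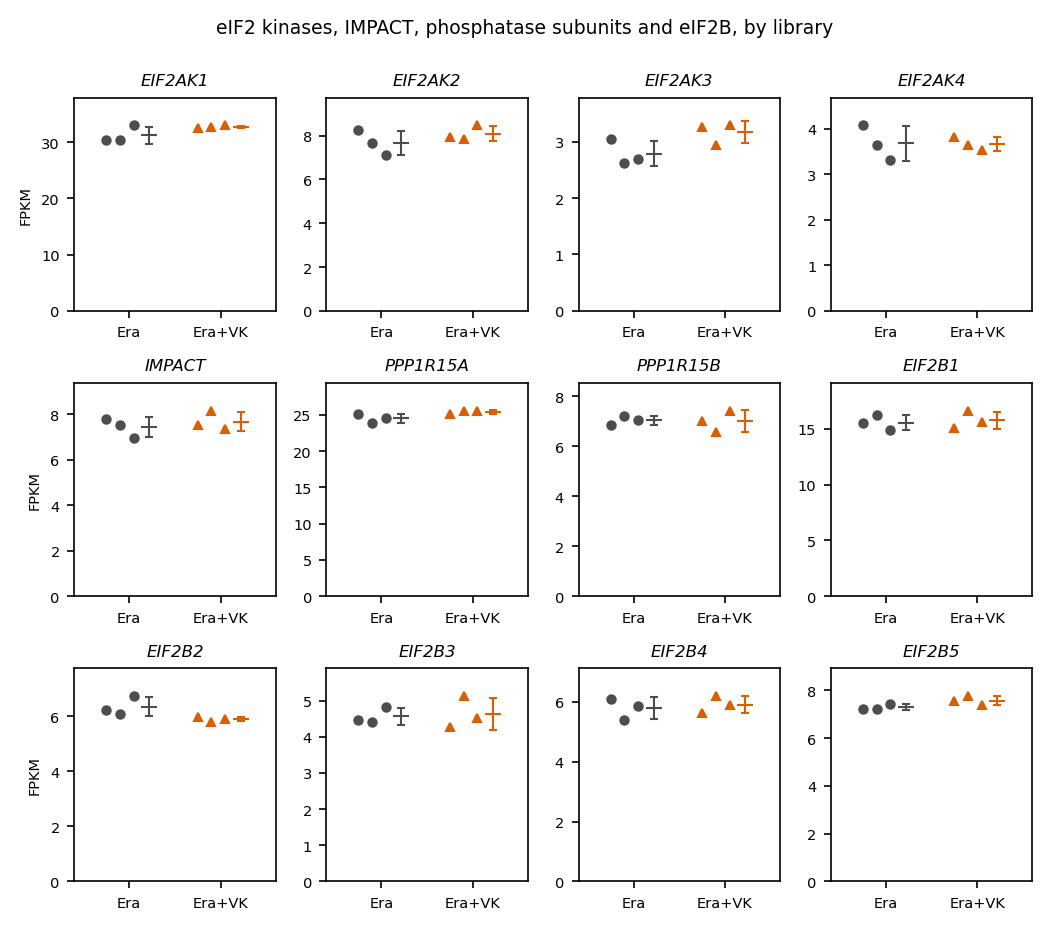
FPKM per library (vertical axes from 0, a scale for each panel) of the 4 eIF2 kinases, IMPACT, the phosphatase subunits and the 5 eIF2B subunits, with circles for Era, triangles for Era+VK, and the mean ± SD (n = 3) beside them. Groups overlap in 11 of the 12 panels, and in that of EIF2B2 every triangle lies below every circle (groups without overlap over all genes: 22.1%).

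PPP1R15A and PPP1R15B are shown with their promoters because GADD34 is known as a stress-induced gene and the mRNA of the stress factor ATF4 fell between the same groups. The sequences are the 250 bases before the RefSeq start (GRCh38.p14), at chr19:48872171-48872420 on the plus strand and chr1:204411818-204412067 on the minus strand. The bases after this start were found in a GENCODE 29 transcript for PPP1R15A but not for PPP1R15B. Distances below refer to the RefSeq start only. Capitals mark matches, on either strand, to TGATGNAAN (the C/EBP-ATF response element, which ATF4 heterodimers bind), TGACGTCA (the cAMP response element of ATF and CREB factors), TGACG (a shortened form of it, which lies within the longer one) and CACGTG (the E-box).
PPP1R15A: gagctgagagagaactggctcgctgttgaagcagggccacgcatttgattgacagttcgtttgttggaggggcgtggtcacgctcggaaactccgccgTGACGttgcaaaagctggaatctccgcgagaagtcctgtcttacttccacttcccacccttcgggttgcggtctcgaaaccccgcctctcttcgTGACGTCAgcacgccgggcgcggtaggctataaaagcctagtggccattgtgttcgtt
PPP1R15B: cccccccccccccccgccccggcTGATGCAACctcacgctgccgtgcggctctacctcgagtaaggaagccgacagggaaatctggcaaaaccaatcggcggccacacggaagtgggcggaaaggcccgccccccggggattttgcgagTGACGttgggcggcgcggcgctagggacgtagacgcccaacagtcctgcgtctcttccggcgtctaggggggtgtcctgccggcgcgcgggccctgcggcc
The PPP1R15A window held 1 full cAMP response element, which begins 58 bases before the start, and a further TGACG that begins 152 bases before it. In the PPP1R15B window there was 1 C/EBP-ATF response element, beginning 227 bases before the start, and 1 TGACG. Of 35116 RefSeq promoter windows of this length, 3.13% held TGATGNAAN, 1.65% TGACGTCA, 21.2% TGACG and 6.34% CACGTG. Such a match describes letters in a window and does not show that a factor was bound.

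eIF3, the scaffold of 13 subunits on the small ribosomal subunit, had no member past the adjusted threshold in limma, and 2 of 13 with an unadjusted p under 0.05 (all genes: 15.8%). The mean was lower in Era+VK for 10 of the 13 mRNAs, with a group median of -0.041 (all genes: 0.033, with a lower mean in 36.7%). Levels differed widely within the complex, from EIF3E at 7.78 FPKM to EIF3L at 81.4 FPKM. EIF3C, a core subunit, had 37.2, 36.3 and 39.0 FPKM (Era) against 33.1, 34.6 and 31.8 FPKM (Era+VK). Its groups did not overlap, and its log2 fold change was -0.17 (standard error 0.048, limma adjusted p = 0.167). The near-identical gene EIF3CL was listed at 77.8, 78.5 and 73.7 FPKM (Era) against 71.2, 73.0 and 65.3 FPKM (Era+VK), so the split of reads between the pair is uncertain. Summed, EIF3C and EIF3CL came to 115, 115 and 113 FPKM in Era and 104, 108 and 97.1 FPKM in Era+VK, again without overlap. EIF3F, a regulatory subunit, was the other member of the complex whose groups did not overlap, with 14.5 to 16.2 FPKM in Era, 13.7 to 14.2 FPKM in Era+VK and a log2 fold change of -0.13 (limma adjusted p = 0.274). Its pseudogene EIF3FP3 was listed at 7.75 to 11.4 FPKM, so reads may be shared, and summed with its copies the groups of EIF3F overlapped, at 24.7, 24.03 and 27.6 FPKM (Era) against 24.5, 23.4 and 21.4 FPKM (Era+VK). The remaining 11 subunits had overlapping groups and log2 fold changes from -0.11 (EIF3D, a cap-binding subunit) to 0.063 (EIF3K).

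The eIF4 factors bring mRNA to the ribosome, with EIF4E binding the cap, EIF4A1 and EIF4A2 unwinding the leader, EIF4G1 and EIF4G3 bridging them, and EIF4B and EIF4H aiding the helicase (EIF4A3, their relative, belongs to the exon junction complex). None of the 10 tested genes passed in limma, 1 of them (EIF4G2) had an unadjusted p under 0.05 (all genes: 15.8%), and the group median was 0.010. EIF4G2 (DAP5), which lacks the eIF4E-binding part of eIF4G and serves cap-independent initiation, had 142, 142 and 140.2 FPKM (Era) against 156, 153 and 153 FPKM (Era+VK). Its Era+VK libraries were all above its Era libraries, with a log2 fold change of 0.12 (standard error 0.039, limma adjusted p = 0.2002). EIF4A1, the main helicase, had 116 to 127 FPKM in Era and 111 to 116 FPKM in Era+VK. The groups of EIF4A1 did not overlap, at a log2 fold change of -0.088 (limma adjusted p = 0.408), but summed with its pseudogenes and the read-through SENP3-EIF4A1 they did, at 133, 139.7 and 136 FPKM (Era) against 123, 141 and 129 FPKM (Era+VK). EIF4E had 9.87, 9.46 and 9.83 FPKM (Era) against 9.22, 9.99 and 8.84 FPKM (Era+VK), with a log2 fold change of -0.052 (95% interval -0.18 to 0.073). Its processed pseudogene EIF4EP2 was listed at 13.1, 13.9 and 16.4 FPKM (Era) against 15.2, 16.7 and 16.1 FPKM (Era+VK), above the gene itself, and summing the gene with its pseudogenes turned the sign (log2 fold change 0.067). The relative EIF4E1B was not analysed here. EIF4E2, a weak cap-binding relative, was at 7.00 to 7.30 FPKM in Era and 7.30 to 7.93 FPKM in Era+VK. The other 6 tested genes (EIF4A2, EIF4A3, EIF4B, EIF4G1, EIF4G3 and EIF4H) had overlapping groups, with log2 fold changes from -0.069 to 0.039.

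The 2 largest differences in size among the 52 tested genes were those of EIF4EBP1 and EIF4EBP3, both lower in Era+VK, while EIF4EBP2 was higher. EIF4EBP1 mRNA (4E-BP1, whose gene is a known target of ATF4) was at 102, 111 and 107 FPKM (Era) against 55.3, 73.5 and 74.2 FPKM (Era+VK). Even the highest Era+VK library lay well under the lowest Era library. Era+VK replicate 1, the one Era+VK library without globin transcripts, was lower than replicates 2 and 3. Whether the spread within Era+VK is tied to those transcripts was not tested. The mean was 107 ± 4.71 FPKM (Era) against 67.7 ± 10.7 FPKM (Era+VK) (SD, n = 3 for both). The log2 fold change of -0.66 (standard error 0.11) was the largest in size of the 52, and the limma adjusted p of 0.0519 was just above 0.05. It passed in 7 of 15 other settings, among them the fit without Era+VK replicate 1 (log2 fold change -0.53, limma adjusted p = 0.0121) and that without Era+VK replicates 2 and 3 (-0.94, limma adjusted p = 0.00911). Without Era replicates 1, 2 and 3 its limma adjusted p was 0.143, 0.203 and 0.178.

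EIF4EBP3, the least abundant 4E-BP, was at 5.21, 4.68 and 5.15 FPKM (Era) against 3.63, 3.52 and 2.82 FPKM (Era+VK). The groups did not overlap, and the log2 fold change was -0.48 (standard error 0.083, limma adjusted p = 0.0552). It shares sequence with the read-through gene ANKHD1-EIF4EBP3, listed at 11.2, 10.5 and 9.69 FPKM (Era) against 11.2, 11.2 and 10.5 FPKM (Era+VK), with overlapping groups. With the gene and the read-through summed, the log2 fold change was -0.11 (limma adjusted p = 0.401), so the size of the difference depends on how the authors' quantification split those reads. EIF4EBP2 (4E-BP2) pointed the other way, at 22.5, 21.1 and 20.6 FPKM (Era) against 25.4, 23.7 and 24.3 FPKM (Era+VK). All its Era+VK values were above all its Era values, with a log2 fold change of 0.18 (standard error 0.050) that did not pass (limma adjusted p = 0.158).

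Added up, the 3 4E-BP mRNAs came to 129.6, 137 and 133 FPKM in Era and 84.3, 101 and 101 FPKM in Era+VK. EIF4EBP1 made up 78.6, 81.2 and 80.7% of that sum in Era and 65.6, 73.0 and 73.2% in Era+VK. The share of EIF4EBP2 was 17.4, 15.4 and 15.5% in Era and 30.1, 23.5 and 23.99% in Era+VK. Neither share overlapped between the groups, with Era+VK replicate 1 furthest from Era in both. Both shares are parts of the same sum. A fall of EIF4EBP1 by itself raises the share of EIF4EBP2, so they are not separate results. Set against the cap-binding protein in the same library, there were 13.1, 14.5 and 13.5 FPKM of 4E-BP mRNA per FPKM of EIF4E in Era. In Era+VK there were 9.14, 10.1 and 11.5, and these too did not overlap. This ratio reuses the EIF4EBP1 values and leaves out EIF4EP2, the EIF4E pseudogene listed above the gene itself.

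**Figure D5:**
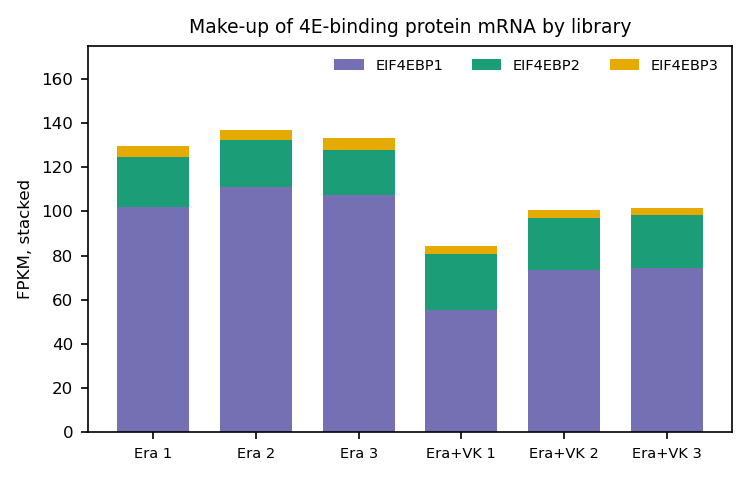
FPKM of EIF4EBP1, EIF4EBP2 and EIF4EBP3 stacked for each of the 6 libraries (vertical axis from 0). The stacks reach 129.6 to 137 FPKM in Era and 84.3 to 101 FPKM in Era+VK, with a shorter EIF4EBP1 segment and a slightly taller EIF4EBP2 segment in Era+VK.

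The promoters of EIF4EBP2 and EIF4EBP3 are given in the same way. Their log2 fold changes had opposite signs, but neither passed the threshold. The sequences are the 250 bases before the RefSeq start at chr10:70403895-70404144 and chr5:140547412-140547661, both on the plus strand of GRCh38.p14. For neither gene were the bases after this start found in a GENCODE 29 transcript, so distances refer to the RefSeq start only.
EIF4EBP2: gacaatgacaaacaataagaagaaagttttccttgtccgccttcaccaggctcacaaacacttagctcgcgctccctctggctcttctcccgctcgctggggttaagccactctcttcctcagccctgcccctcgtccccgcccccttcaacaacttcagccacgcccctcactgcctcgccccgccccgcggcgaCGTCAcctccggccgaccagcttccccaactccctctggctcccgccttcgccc
EIF4EBP3: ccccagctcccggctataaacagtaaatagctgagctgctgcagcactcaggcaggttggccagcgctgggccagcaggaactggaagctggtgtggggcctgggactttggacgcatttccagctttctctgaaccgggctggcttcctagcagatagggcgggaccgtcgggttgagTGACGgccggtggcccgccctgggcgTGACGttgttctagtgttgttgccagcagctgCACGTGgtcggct
EIF4EBP2 held 1 TGACG, on the opposite strand, which begins 54 bases before the start. EIF4EBP3 held TGACG at 71 and 45 bases and an E-box at 13 bases before the start. Neither window held TGATGNAAN or TGACGTCA. Over all 53 genes, 45 had at least 1 window, and EIF2S2, EIF4EBP1, EIF3A, EIF3L, EIF3G, EIF2AK1, EIF3E and EIF3H had no entry. TGACG was found in 25 of their 60 windows (41.7%, all windows 21.2%) and CACGTG in 12 (20%, all windows 6.34%), for 21 and 12 of the genes. The windows of all genes were not matched to those of the members in expression or base composition. Whether that accounts for the higher shares was not tested, so they are not read as a trait of the members. The C/EBP-ATF element was found for EIF4E3 and PPP1R15B alone. Tested genes with TGACG had a median log2 fold change of -0.012 (20 genes) and those without -0.0003 (24 genes).

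Among the late-acting and start-site factors, EIF5A, the hypusine-bearing factor that helps stalled ribosomes along, had 137, 144 and 152 FPKM (Era) against 118, 131 and 124 FPKM (Era+VK). Its Era+VK libraries lay below its Era libraries, with a log2 fold change of -0.21 (standard error 0.057, limma adjusted p = 0.152). Summed with its copies, EIF5AP4 and EIF5AL1 among them, EIF5A came to 159, 157 and 165 FPKM (Era) against 129.7, 142 and 135 FPKM (Era+VK), also without overlap. EIF6, which keeps large ribosomal subunits from joining too early, had 67.4, 64.2 and 72.2 FPKM (Era) against 54.4, 64.8 and 58.4 FPKM (Era+VK), with a log2 fold change of -0.20 (standard error 0.072, limma adjusted p = 0.256). Its groups overlapped through Era+VK replicate 2. EIF1B, a close relative of the start-codon gatekeeper EIF1, had 17.8, 17.9 and 16.8 FPKM (Era) against 18.7, 21.1 and 19.1 FPKM (Era+VK). All its Era+VK values were above all its Era values, at a log2 fold change of 0.16 (standard error 0.056, limma adjusted p = 0.244). None of these 3 passed the threshold.

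EIF1 itself ranged from 83.5 to 87.9 FPKM in Era and from 80.6 to 94.0 FPKM in Era+VK. EIF1AX, the eIF1A of the X chromosome, ranged from 20.7 to 21.2 FPKM in Era and from 19.5 to 20.4 FPKM in Era+VK, without overlap but with a log2 fold change of -0.059 (limma adjusted p = 0.516). Summed with its pseudogene EIF1AXP1 the groups overlapped, at 31.8, 30.4 and 31.0 FPKM (Era) against 31.0, 35.2 and 32.1 FPKM (Era+VK). EIF1AD, an eIF1A-domain protein, overlapped between the groups (log2 fold change 0.092). EIF5, the activator of GTP hydrolysis by eIF2, ranged from 32.7 to 34.4 FPKM in Era and from 34.4 to 36.5 FPKM in Era+VK. The lowest Era+VK value of EIF5 was barely above the highest Era value, and its log2 fold change was 0.079 (limma adjusted p = 0.425). EIF5B, which joins the subunits, and EIF5A2, the minor eIF5A gene, had overlapping groups, at -0.031 and 0.11 on the log2 scale.

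The genes around these factors were read from a list of 68 (partners of the eIF2 kinases and phosphatases, mTORC1 and its amino acid inputs, eIF4F partners, recycling, elongation and termination, and transcription factors of the integrated stress response), of which 66 could be tested. Of the 66, 2 fell and none rose at the adjusted threshold in limma (all genes: 0.484% lower and 0.134% higher), and both are transcription factors of the stress response. ATF4, which phosphorylated eIF2 favours at the level of translation, was at 134, 139 and 146 FPKM (Era) against 88.2, 98.8 and 98.3 FPKM (Era+VK). Its mean was 139.5 ± 5.76 FPKM (Era) against 95.1 ± 5.99 FPKM (Era+VK) (SD, n = 3 for both), which gave a log2 fold change of -0.55 (standard error 0.059, limma adjusted p = 0.0128). CEBPG, a dimerisation partner of ATF4, was at 7.40, 8.61 and 8.14 FPKM (Era) against 4.90, 5.42 and 5.30 FPKM (Era+VK), and had a log2 fold change of -0.54 (standard error 0.064, limma adjusted p = 0.0196). Neither passed when Era replicate 1, 2 or 3 was left out (0 genes of the list each time). Without Era+VK replicate 3, and without Era+VK replicates 2 and 3 together, ATF4 alone passed. Translation of the ATF4 mRNA, on which eIF2 phosphorylation acts, was not measured. DDIT3 (CHOP), the stress factor most tied to cell death, had 5.96, 6.90 and 6.62 FPKM (Era) against 6.60, 7.57 and 6.44 FPKM (Era+VK), with overlapping groups and a log2 fold change of 0.070 (95% interval -0.10 to 0.24). Of the remaining stress factors, TRIB3, ATF3 and CEBPB were lower, at -0.45, -0.15 and -0.14, and ATF5 was higher, at 0.24. None passed (limma adjusted p = 0.0552, 0.319, 0.441 and 0.290). TRIB3 did pass with quantile normalization and without Era+VK replicate 2.

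Outside the transcription factors none of 59 tested genes passed in limma, while 9 had an unadjusted p under 0.05, 3 lower and 6 higher (all genes: 15.8%, 5.42% lower and 10.4% higher), which is close to the share over all genes. For the 10 partners of the eIF2 kinases and phosphatases the median log2 fold change was 0.042, with a lowest limma adjusted p of 0.212. For the 23 tested genes of mTORC1 and its inputs the median was 0.032 and the lowest adjusted p 0.150, and for the 11 eIF4F partners and kinases -0.011 and 0.472. The 12 elongation and termination factors had a median of -0.024 and a lowest adjusted p of 0.616, and the 3 recycling and reinitiation factors -0.071 and 0.244. The stress response transcription factors had a median of -0.15 over 7 genes, against 0.068 for the 4 kinases and -0.22 for the eIF2 trimer.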

How the data were processed

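RNA was sequenced as paired ends on an Illumina NovaSeq instrument. The authors deposited FPKM per gene and library with 2 decimals, 1 table per library, not pooled. The submitters' processing notes name cutadapt, HISAT2, StringTie 2.1.6 and the build mm10, although samples and Ensembl identifiers are human. The annotation release, strand setting and filters are not given in the sources used here. Each FPKM is a share of its library, so abundant genes that change shift the rest. No read counts were used. In 1615 to 1686 single-exon genes per library, no whole-read steps were found among the low values (highest concentration 0.191 to 0.218, where 1 would mean every value on a step), so depth is unknown, and no counting interval is given.

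Groups were taken from the labels, doses and times from the study's methods. The 11981 of 33496 genes whose mean reached 1 FPKM were tested with limma 3.58.1 in R 4.3.3 (lmFit, eBayes with a trend) on log2(FPKM + 1), comparing Era+VK with Era and leaving the replicate number out of the model. P-values were adjusted by Benjamini-Hochberg over all 11981 genes, with a threshold of 0.05. The script was tested on simulated data. Gene positions are from GENCODE 29 (all 53 genes matched by identifier) and promoters from RefSeq. The members and lists were chosen with earlier results of these data known. Values per library are given for members past the threshold, EIF2S1, the eIF2 kinases, IMPACT, the phosphatase, eIF2B and 4E-BP genes, EIF4E and the 10 members with the lowest unadjusted p. EIF4E3, below the minimum, is given by its values, pathway genes are named where they pass, and ATF4 and DDIT3 always. Other genes were named for a range end, a group without overlap, a shared sequence or to complete the stress response factors, after their values were seen. Other pseudocounts, filters, scalings, the replicate block and sets of libraries were tried. Sums of members with their pseudogenes, copies and read-through genes were added after the data were examined.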

Additional observations from a re-analysis of the deposited data

How the results depend on the processing

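Of the 53 genes, 1 passed the adjusted threshold in the analysis as reported. The count was 0 with no filter on low values, 2 after rescaling without mitochondrially encoded and globin genes (EIF2S2 and EIF4EBP1), and 3 with a minimum of 1 FPKM in every library, with quantile normalization and with median-of-ratios scaling (EIF2S2, EIF4EBP1 and EIF4EBP3 each time). With each library left out in turn it was 0 to 1, and for the pathway list, with 2 as reported, 0 to 3. No filter gave 0 pathway genes, and leaving out Era+VK replicates 2 and 3 together gave 1. Over all genes the count of 74 became 1 with no filter, where 31325 genes were tested, 122 with 1 FPKM in every library, 112 with quantile normalization, 118 with median-of-ratios scaling (105 of them lower, against 58 of 74), and 2 to 71 with single libraries left out (2 without Era replicate 2). Apart from the wider or narrower set of genes tested, the cause was not tested. EIF2S2 kept its direction in all 15 alternatives and passed in 7, EIF4EBP1 passed in 7 and EIF4EBP3 in 3. Of 360 values of single genes under the alternatives, 22 turned direction, all for genes with log2 fold changes near 0. With quantile normalization EIF2B1, EIF2B3 and EIF2B4 were at -0.017, -0.022 and -0.016, with median-of-ratios scaling at -0.018, -0.015 and -0.0066, and without Era+VK replicates 2 and 3 at -0.040, -0.078 and -0.032, where EIF2AK4 was at 0.048. Summing with pseudogenes put EIF4E at 0.067. With single libraries left out, log2 fold changes ranged from -0.019 to 0.047 for EIF2B1, -0.046 to 0.063 for EIF2B3, -0.018 to 0.058 for EIF2B4, -0.059 to 0.058 for EIF2AK4 and -0.044 to 0.033 for PPP1R15B.

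Between same-numbered libraries, deviations from the group means correlated at 0.0709, 0.103 and 0.0210 for replicates 1, 2 and 3. Pairs with different numbers gave -0.114 to 0.0401. Era replicate 3 correlated better with Era+VK replicate 1 (0.0401) than with its own number. All these correlations are small, and whether same-numbered libraries shared a batch is not known. With the replicate number as a block, 42 genes passed over all genes, 1 member (EIF4EBP1, limma adjusted p = 0.0404, with EIF2S2 at 0.0757) and 2 pathway genes. FPKM without counts give no depth, so precision rests on 3 libraries per group.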
